A study of Mus musculus with 6 samples.

Results

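A set of 10 genes that serve the red-cell membrane, its gas and water transport, heme synthesis, iron uptake and glycolysis were followed in multipotent progenitors of mice with and without latexin (Lxn), a carboxypeptidase inhibitor gene. The 10 genes, Car1, Car2, Alas2, Ermap, Rhd, Slc4a1, Aqp1, Add2, Tfrc and Pklr, were chosen by symbol in the platform's probe-to-gene table. Each is read by 1 feature of the array, so 10 of 19938 named genes, and 10 of the 23410 features tested, are described here. No filter on low values was applied, and all 10 were measured.

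RNA was profiled on 6 Affymetrix MoGene 1.0 ST arrays, 3 of wild-type (WT) mice with an intact latexin gene and 3 of Lxn-/- mice, in which exons 2 to 4 of latexin are deleted. Both groups were female C57BL/6 mice of 8 to 12 weeks, per the labels, and each array was made from 100 ng of total RNA of about 100000 cells pooled from 10 to 20 mice. The bone marrow cells were sorted as lineage-negative, Sca1+, c-Kit+ and CD34+, and as positive for a marker that the series text writes as Flt2, and the labels call them multipotent progenitor cells (MPP). The labels name no Cre driver or cell type that would limit the deletion to some cells of the mouse. Values are log2 expression values normalized by RMA, so a difference of 1 is a 2-fold difference, and only 3 arrays a group limit their precision. Differences are given as Lxn-/- minus WT with the standard error (SE) of limma, and levels as mean ± SD with n = 3 per group. Levels of different genes are not compared, because probes differ in brightness.

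Red cells arise from multipotent progenitors through megakaryocyte-erythroid and then erythroid precursors. Along this path the factors Gata1 and Klf1 activate genes of heme, globin, membrane skeleton and blood group proteins. Multipotent progenitors are upstream of that commitment, and genes of several blood lineages are known to be expressed at low levels in them. In bulk samples such as these, fewer cells expressing a gene and less of its RNA per cell cannot be told apart.

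The labels were checked before the groups were compared. Lxn was 8.56, 8.70 and 8.58 in the WT arrays and 8.03, 8.53 and 8.61 in the arrays labelled Lxn-/-, and the ranges overlap. The sources used here do not say which exons its probes cover, so Lxn does not check the genotype, and groups are named by their labels. Arrays 1 and 3 labelled Lxn-/- carried signal of Y-linked genes (Eif2s3y at 8.57 and 9.36, against 3.68 to 3.97 in the other 4 arrays) and low Xist (6.86 and 5.85, against 13.13 to 13.23), although all animals are labelled female. Results are therefore also given without these arrays. Of the sort markers, Kit was 12.13 ± 0.07 in WT and 11.91 ± 0.38 in Lxn-/-, Flt3 was 12.71 ± 0.04 and 12.68 ± 0.20, and Cd34 was 13.41 ± 0.05 and 13.40 ± 0.07. All 3 lay above the 96th percentile of features in mean level, while Ly6a, which encodes Sca1, was not analysed here.

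Of the 10 genes, 9 had a lower mean in the arrays labelled Lxn-/-, and 1, the transferrin receptor gene Tfrc, had a higher one. The median change over the 10 genes was -0.41, against -0.04 over all features. In 5 genes (Ermap, Rhd, Aqp1, Add2 and Pklr) all 3 Lxn-/- values lay below all 3 WT values, and in the other 5 the groups overlapped. None of the 10 passed the threshold of 0.05 after Benjamini-Hochberg adjustment in limma (lowest value 0.340), and 0 of 23410 features passed (0% of those tested). At an unadjusted p under 0.05 there were 3346 features, 14.3% of those tested, and 6 of the 10 genes, 5 of them lower and Tfrc higher. Over all features, 57.8% had a lower mean, 13.0% were lower without overlap, 9.23% were lower and 5.06% higher at an unadjusted p under 0.05. None of the 10 genes was higher without overlap, as 8.54% of features were.

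**Figure D1:**
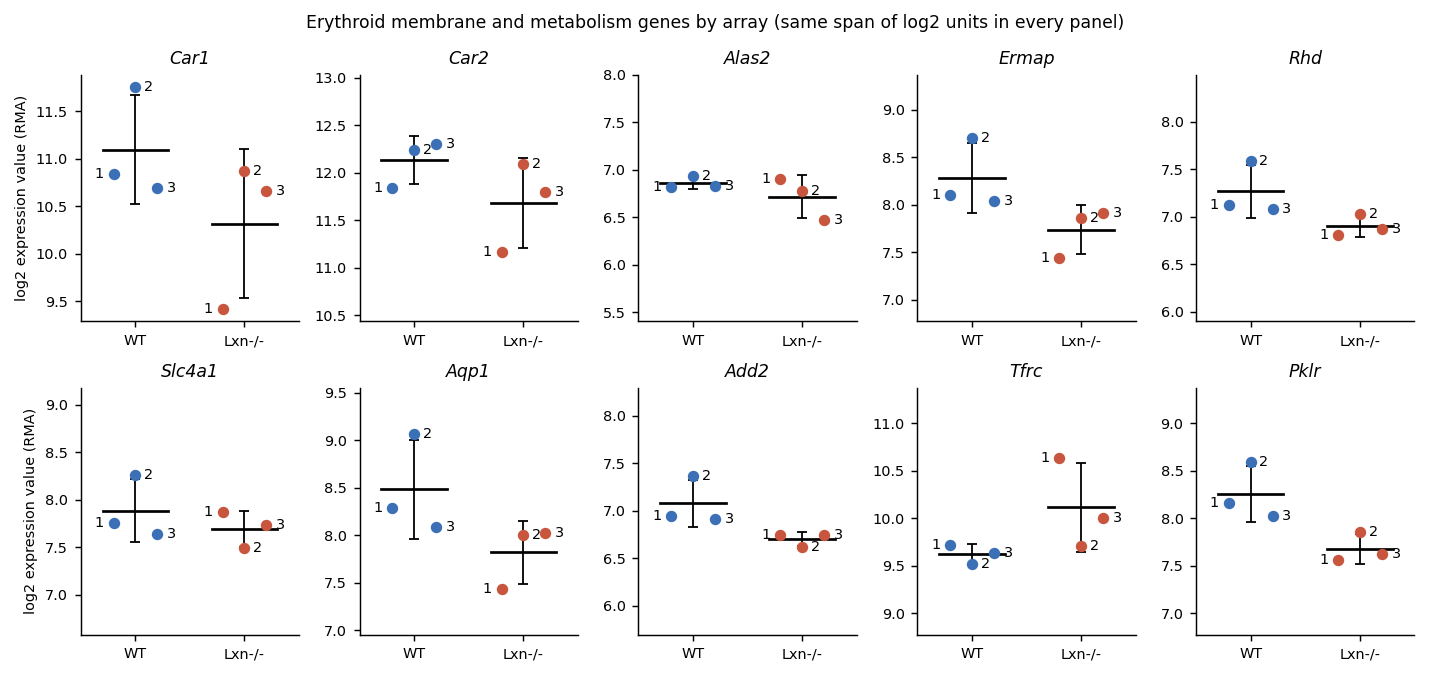
Log2 expression values (y axis) of each gene in the 3 WT arrays (blue) and the 3 arrays labelled Lxn-/- (red), with replicate numbers beside the points, group means as lines and SDs as bars. Every panel spans the same number of log2 units, so spreads can be compared but absolute levels differ. Array WT 2 is the highest of 6 in 8 genes, and array Lxn-/- 1 is the lowest in 6.

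The background of lower values depends on brightness, so each gene was also set beside features of like level. Features not above the median level had a median change of -0.13, and 84.9% of them had a lower mean. Features above it had a median of 0.07, and 30.7% had a lower mean. Of the 10 genes, 3 (Alas2, Rhd and Add2) are not above the median level, and all had a lower mean, as most dim features did. Of the 7 above it, 6 had a lower mean. Ermap, Slc4a1, Aqp1 and Pklr lie just above the median, where 46.3% to 57.7% of features of like level had a lower mean. Without overlap between groups, 3 of the 7 were lower (Ermap, Aqp1 and Pklr), where 3.60% of features above the median were. At the levels of these 3 genes themselves, 9.31% to 11.7% of features were lower without overlap. Of the 3 dim genes, 2 (Rhd and Add2) were lower without overlap, where 22.4% of dim features were. The same 5 genes were lower at an unadjusted p under 0.05, as were 3.02% of features above the median level and 15.4% of the others. As a rough guide to dim signal, 95% of 1035 olfactory receptor features, which these cells are not known to express, had a mean level below 7.20, and Alas2, Rhd and Add2 lie near or below that value.

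**Figure D2:**
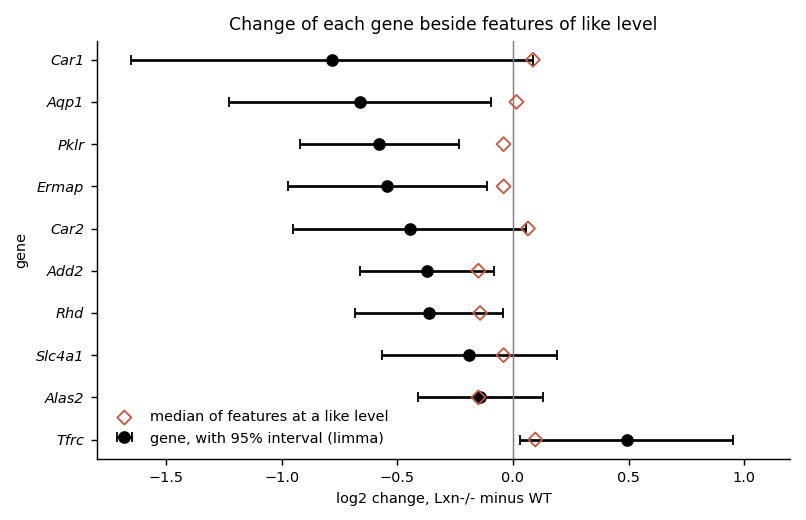
Log2 change of each gene, Lxn-/- minus WT, with its 95% interval from limma (black), and the median change of the roughly 1170 features in the same twentieth of mean level (open diamonds). The median of like features is 0.09 for Car1 and -0.15 for Alas2 and Add2, and the estimates of Alas2 and its like features nearly coincide.

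Among the genes of gas and ion exchange, Car1 had the largest difference of the 10 and also the widest spread. Car1 (chromosome 3) encodes carbonic anhydrase 1, which converts carbon dioxide and water to bicarbonate and is abundant in red cells. It was 10.84, 11.76 and 10.69 in WT arrays 1, 2 and 3 and 9.42, 10.87 and 10.66 in the arrays labelled Lxn-/-. The groups overlap, since Lxn-/- array 2 exceeded 2 of the WT arrays, and WT array 2 and Lxn-/- array 1 stood farthest apart. The change of -0.78 (SE 0.38, 95% interval -1.65 to 0.09), or 1.72-fold lower on average, had an adjusted p of 0.366. Without Lxn-/- array 1 it was -0.33, without WT array 2 it was -0.45, and without both it was -0.01. Features of like level had a median change of 0.09, and 22.2% of them had a lower mean.

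Car2, which lies near Car1 on chromosome 3, encodes the highly active carbonic anhydrase 2, used in red cells and in other tissues such as kidney and bone. It was 11.84, 12.24 and 12.31 in WT and 11.16, 12.10 and 11.79 in Lxn-/-. Lxn-/- array 1 alone was far below the others, and array 2 lay inside the WT range. The change was -0.45 (SE 0.22, interval -0.95 to 0.06, adjusted p of 0.371), and -0.19 without Lxn-/- array 1. At the level of Car2, features had a median change of 0.06, and 19.0% of them had a lower mean. Slc4a1 (chromosome 11) encodes band 3, the anion exchanger that trades bicarbonate for chloride and anchors the red-cell skeleton. Its values were 7.76, 8.27 and 7.64 in WT and 7.87, 7.50 and 7.73 in Lxn-/-, and the groups overlap. The change of -0.19 (SE 0.17, interval -0.57 to 0.19) had an adjusted p of 0.560, and without WT array 2 it was -0.00023.

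Aqp1 (chromosome 6) encodes the water channel aquaporin 1, which carries a blood group on red cells. It was 8.29, 9.07 and 8.09 in WT and 7.44, 8.00 and 8.02 in Lxn-/-, all 3 below the lowest WT array, by 0.07 at the nearest. The mean was 1.58-fold lower, a change of -0.66 (SE 0.25, interval -1.23 to -0.10, adjusted p of 0.340). It was -0.37 without WT array 2, -0.47 without Lxn-/- array 1 and -0.18 without both. Of features at a like level, 9.31% were lower without overlap.

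The blood group genes Ermap and Rhd and the membrane skeleton gene Add2 were each lower without overlap. Ermap (chromosome 4) encodes a membrane protein of the immunoglobulin superfamily that carries the Scianna blood group. It was 8.10, 8.70 and 8.04 in WT and 7.44, 7.86 and 7.91 in Lxn-/-, a change of -0.54 (SE 0.19, interval -0.97 to -0.11, adjusted p of 0.340). WT array 2 was the highest and Lxn-/- array 1 the lowest, and the change was -0.33 without the former and -0.40 without the latter. Rhd, also on chromosome 4, encodes the Rh blood group protein of the ammonium transporter family. Its values of 7.12, 7.59 and 7.08 in WT and 6.81, 7.02 and 6.87 in Lxn-/- were 0.06 apart at the nearest. The change was -0.36 (SE 0.14, interval -0.68 to -0.05, adjusted p of 0.340). Without WT array 2 it was -0.20, beside a median of -0.14 for features of like level, of which 23.9% were lower without overlap.

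Add2 (chromosome 6) encodes beta-adducin, which caps actin filaments and joins them to spectrin in the red-cell skeleton. It was 6.95, 7.37 and 6.91 in WT and 6.75, 6.62 and 6.74 in Lxn-/-, and the Lxn-/- arrays lay within 0.13 of each other. The change was -0.37 (SE 0.13, interval -0.66 to -0.08, adjusted p of 0.340), and -0.25 without both WT array 2 and Lxn-/- array 1. Features of like level had a median of -0.15, and 24.6% were lower without overlap.

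Pklr had the smallest p of the 10 genes. It lies on chromosome 3 and encodes the pyruvate kinase of red cells and liver, which makes ATP in the last step of glycolysis. It was 8.16, 8.59 and 8.02 in WT and 7.56, 7.86 and 7.63 in Lxn-/-, so that the highest Lxn-/- array was 0.17 below the lowest WT array. The mean was 1.49-fold lower, a change of -0.58 (SE 0.15, interval -0.92 to -0.24, adjusted p of 0.340). Each array left out in turn gave -0.41 to -0.70, and leaving out both WT array 2 and Lxn-/- array 1 gave -0.35, the largest remaining difference of the 10. Features of like level had a median of -0.04, and 11.7% were lower without overlap.

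Alas2, on the X chromosome, encodes the erythroid 5-aminolevulinate synthase that starts heme synthesis in red-cell precursors. It was 6.81, 6.93 and 6.83 in WT and 6.90, 6.77 and 6.47 in Lxn-/-, with Lxn-/- array 1 inside the WT range. The change of -0.14 (SE 0.12, interval -0.41 to 0.13, adjusted p of 0.541) was close to the median of like features, -0.15, and 89.0% of those had a lower mean. It was -0.02 without Lxn-/- array 3, -0.24 without Lxn-/- array 1 and -0.01 with quantile normalization repeated over the tested features.

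Tfrc was the one gene with a higher mean. It lies on chromosome 16 and encodes transferrin receptor 1, which brings iron into erythroblasts and into dividing cells of many kinds. It was 9.72, 9.52 and 9.63 in WT and 10.64, 9.71 and 10.00 in Lxn-/-. Lxn-/- array 2, without Y-linked signal, lay inside the WT range, and arrays 1 and 3 lay above all WT arrays. The change was 0.49 (SE 0.20, interval 0.03 to 0.95, adjusted p of 0.341), a 1.41-fold higher mean. It was 0.23 without Lxn-/- array 1, 0.69 without array 2 and 0.09 without arrays 1 and 3.

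**Figure D3:**
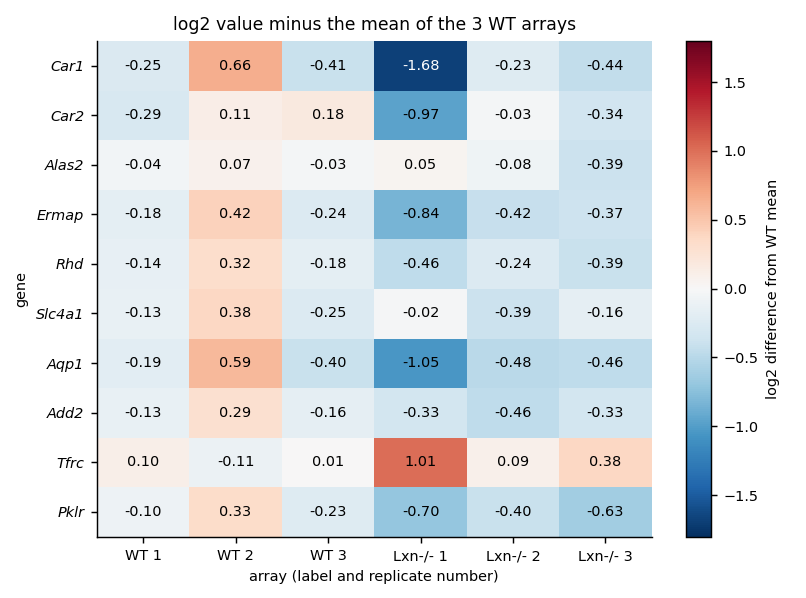
Log2 value of each gene (rows) in each array (columns) minus the mean of its 3 WT arrays, from blue (lower) to red (higher). WT array 2 is above the WT mean in every gene but Tfrc, and Lxn-/- array 1 ranges from -1.68 in Car1 to 1.01 in Tfrc.

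Within the groups, most of the genes shared a shift in WT array 2, and fewer did in Lxn-/- array 1. WT array 2 exceeded the mean of WT arrays 1 and 3 in 9 genes, by 0.11 (Alas2) to 0.99 (Car1), and lay 0.16 below it in Tfrc. Over all features the 95th percentile of that difference was 0.31, and WT array 2 was the highest of 6 arrays in 30.2% of features, against 8 of these 10 genes. Lxn-/- array 1 was the lowest in 6 genes, and in 17.9% of all features. It exceeded the mean of Lxn-/- arrays 2 and 3 in Alas2 (by 0.28), Slc4a1 (0.26), Add2 (0.07) and Tfrc (0.78). Relative to the WT mean, the median of the 10 genes was -0.14, 0.33 and -0.21 in WT arrays 1, 2 and 3 and -0.58, -0.32 and -0.38 in the Lxn-/- arrays. WT array 2 stood farther from the other 2 WT arrays than these did from Lxn-/- array 2.

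The count of lower genes was the same whichever array was left out, while its size was not. In all, 9 of 10 genes kept a lower mean with each array left out in turn, with medians from -0.52 to -0.28. At an unadjusted p under 0.05 in limma there were 6 genes with all arrays, 2 without WT array 2 and 2 without Lxn-/- array 1. Of the 23410 features, 3346 were at that p with all arrays, 1904 without WT array 2 and 5541 without Lxn-/- array 1. Without both of these arrays the median was -0.17, and 6 genes were lower without overlap in the remaining 2 against 2 arrays, as were 32.1% of all features. Without the 2 arrays with Y-linked signal the median was -0.32, and Lxn-/- array 2 alone lay below all 3 WT arrays in 7 genes, and in 37.2% of all features. In that comparison Slc4a1 was at -0.39 and Add2 at -0.46, and Car2 was at -0.03. With quantile normalization repeated over the tested features, the median was -0.38 and 4 genes were lower without overlap (7.00% of all features). In that run 3 genes had an unadjusted p under 0.05, as had 1812 of the 23410 features. Centring each array on its median left 5 genes lower without overlap, and 6.36% of all features.

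**Figure D4:**
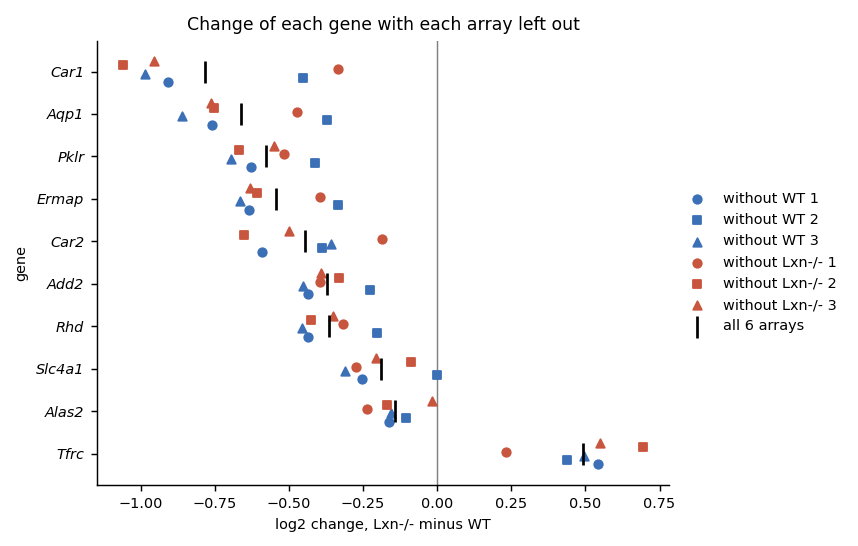
Log2 change of each gene (x axis, Lxn-/- minus WT) with all 6 arrays (black bar) and with each array left out (symbols, blue for WT and red for Lxn-/- arrays). Leaving out WT array 2 or Lxn-/- array 1 brings Car1 from -0.78 to -0.45 or -0.33, and Slc4a1 without WT array 2 stands at -0.00023.

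Upstream sequences are shown for the 4 genes of the set whose window holds a Gata motif. RefSeq start sites (GRCm38.p6) were available for 7 of the 10 genes, and the 250 bases before each start were searched on both strands for AGATAA or TGATAA, letters bound by Gata factors. Of 32851 mouse windows of this length 16.6% hold such a match, as do 4 of the 9 windows of these 7 genes. The 4 windows are given 5′ to 3′ on the strand of the gene, with the match in capitals.
Pklr (chr3:89135892-89136141, + strand): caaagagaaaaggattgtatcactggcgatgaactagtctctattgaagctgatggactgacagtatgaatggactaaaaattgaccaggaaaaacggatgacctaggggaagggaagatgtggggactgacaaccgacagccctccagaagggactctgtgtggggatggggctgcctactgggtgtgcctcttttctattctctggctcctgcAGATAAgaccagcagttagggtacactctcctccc
Rhd (chr4:134864286-134864535, + strand): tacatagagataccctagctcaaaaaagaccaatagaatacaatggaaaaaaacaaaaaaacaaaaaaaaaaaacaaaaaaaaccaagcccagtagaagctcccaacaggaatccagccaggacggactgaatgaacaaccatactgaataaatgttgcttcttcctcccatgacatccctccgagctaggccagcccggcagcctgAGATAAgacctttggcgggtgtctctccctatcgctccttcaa
Ermap (chr4:119189996-119190245, - strand): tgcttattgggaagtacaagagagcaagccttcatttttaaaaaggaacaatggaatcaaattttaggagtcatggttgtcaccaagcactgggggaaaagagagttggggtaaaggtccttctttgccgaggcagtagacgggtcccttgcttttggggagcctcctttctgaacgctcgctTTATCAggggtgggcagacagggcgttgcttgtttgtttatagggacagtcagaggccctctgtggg
Alas2 (chrX:150547167-150547416, + strand): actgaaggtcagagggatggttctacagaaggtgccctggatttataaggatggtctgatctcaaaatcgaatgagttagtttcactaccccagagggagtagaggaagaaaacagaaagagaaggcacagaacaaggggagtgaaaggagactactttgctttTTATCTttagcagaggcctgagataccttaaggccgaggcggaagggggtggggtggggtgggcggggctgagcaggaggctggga
The match began 35 bases before the start in Pklr, 43 in Rhd, 67 in Ermap and 86 in Alas2, reading TTATCA in Ermap and TTATCT in Alas2, which is the motif on the opposite strand. Pklr has a second window, upstream of a later start, that holds no such letters. Aqp1, Add2 and Tfrc hold none in this window. The letters CCNCNCCC, a motif of Klf factors, occur in the windows of Alas2, Aqp1, Add2 and Tfrc and in 45.9% of all windows. Of the genes with this motif 2 of 4 were lower without overlap, and of those with the Gata motif 3 of 4. Over all features 13.0% were, and 22.4% of those not above the median level. Alas2 has both motifs and is counted in each group. A link between either motif and the changes was not tested. A match describes letters only and is not a measured binding site.

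The closest patterns among all other genes were found by the root mean square difference from the mean pattern of the 10 genes over the 6 arrays. Among 19928 genes, whose median difference was 0.25 log2 units, the 5 smallest were those of Gata1 (0.030), Atp1b2 (0.039), Irf4 (0.044), Sphk1 (0.054) and Klf1 (0.065). Gata1, the erythroid and megakaryocyte zinc finger factor, was 7.67, 8.08 and 7.67 in WT and 7.35, 7.57 and 7.47 in Lxn-/-, a change of -0.35 (SE 0.13, adjusted p of 0.340). Klf1, which activates adult globin genes, was 7.61, 8.07 and 7.63 in WT and 7.44, 7.59 and 7.49 in Lxn-/- (-0.26, SE 0.13, adjusted p of 0.370). Both were lower without overlap and highest in WT array 2. The mean pattern by which they were picked has both traits, so these follow largely from the choice. Of features not above the median level, where both genes lie, 22.4% were lower without overlap. The other 3 encode a sodium pump subunit (Atp1b2), a lymphoid transcription factor (Irf4) and a sphingosine kinase (Sphk1), with changes of -0.38, -0.34 and -0.35. All 5 genes are near or below the middle of the level range. Whether the 1 or 2 arrays that stand apart account for the likeness was not tested.

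Erythroid transcription factors and the erythropoietin receptor had a median of -0.23, with 8 of 10 lower and 2 higher in mean and 0 passing after adjustment. The lower ones were 5 of the 7 above the median level, where 30.7% of features had a lower mean. The others were all 3 not above it, where 84.9% had. Of the 10 genes in this list, 4 were lower at an unadjusted p under 0.05, where 9.23% of all features were. They were Gata1, Gata2 (-0.51, SE 0.20), which acts in stem cells and mast cells as well, the Gata1 partner gene Zfpm1 (-0.43, SE 0.14) and the repressor gene Gfi1b (-0.83, SE 0.32). Gfi1b was 9.18 and 9.69 in arrays 1 and 3 labelled Lxn-/- and 10.75 in Lxn-/- array 2, against 10.60 to 10.81 in WT. Epor, the erythropoietin receptor gene, was 7.63 ± 0.23 in WT and 7.48 ± 0.10 in Lxn-/- (-0.15, SE 0.13).

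Of 14 other skeleton and blood group genes of the red-cell membrane that were measured, 11 were lower in mean, at a median of -0.11. They were 5 of the 7 above the median level, where 30.7% of features had a lower mean, and 6 of the 7 not above it, where 84.9% had. In limma 0 had an unadjusted p under 0.05 in either direction, and 1 was lower without overlap, beside 13.0% of all features. Ank1, which encodes the ankyrin that ties band 3 to spectrin, was at -0.21 (SE 0.13). Rhag, the Rh-associated glycoprotein gene, was at -0.39 (SE 0.20), but at mean levels of 6.29 in WT and 5.89 in Lxn-/- it lies in the dim range.

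Heme synthesis enzymes had no common direction. Of 7 measured, 5 were higher and 2 lower in mean at a median of 0.07, and 0 had an unadjusted p under 0.05. All 7 are above the median level, where 69.3% of features had a higher mean and the median change was also 0.07. Alas1, the housekeeping counterpart of Alas2, was 10.33 ± 0.21 in WT and 10.50 ± 0.15 in Lxn-/- (0.17, SE 0.13). Alad, which makes porphobilinogen, was at 0.02 (SE 0.12), and Fech, which inserts iron into heme, at 0.07 (SE 0.09). Of 12 iron genes measured, 10 were higher and 2 lower in mean (median 0.11), and 11 of them are above the median level, where 69.3% of features had a higher mean. An unadjusted p under 0.05 was found for 1 higher and 1 lower iron gene, beside 5.06% and 9.23% of all features. Abcb10, a mitochondrial transporter gene of erythroid cells, was the higher one at 0.25 (SE 0.10), and Slc40a1, which encodes the iron exporter ferroportin, the lower one at -0.54 (SE 0.22). Mitoferrin, Slc25a37, was at 0.05 (SE 0.11), and Tfr2, the second transferrin receptor gene, at -0.02 (SE 0.15) beside 0.49 for Tfrc.

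Embryonic globin genes were the only globins measured on features of 1 gene. All 3 were lower in mean, at a median of -0.21. None of the 3 is above the median level, and 84.9% of such features had a lower mean. Hbb-bh1 (4.75 ± 0.09 in WT and 4.51 ± 0.07 in Lxn-/-) and Hbb-y were lower without overlap, both in the dim range where 22.4% of features were. The adult globin genes were not analysed here.

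Paralogs of the 10 genes formed a further list, and some of them, such as Rhag, Add1 and Add3, belong to the red-cell membrane too. Of 24 measured, 19 were lower in mean at a median of -0.10. They were 6 of the 9 above the median level, where 30.7% of features had a lower mean, and 13 of the 15 not above it, where 84.9% had. An unadjusted p under 0.05 was found for 4 lower and 1 higher, beside 9.23% and 5.06% of all features. The 4 were Aqp3 (-0.27, SE 0.10), Car8 (-0.21, SE 0.08), Slc4a3 (-0.23, SE 0.10) and Car14 (-0.32, SE 0.14), all below the median level, where 15.4% of features were lower at that p, and the higher one was the membrane carbonic anhydrase gene Car12 (0.44, SE 0.20). Some pairs are set side by side here, and the differences between them were not tested. Alas1 was at 0.17 (SE 0.13), beside -0.14 for Alas2. Add1 was at -0.09 (SE 0.10) and Add3 at -0.07 (SE 0.10), beside -0.37 for Add2. Pkm, the muscle and general pyruvate kinase gene, was at 0.16 (SE 0.11), beside -0.58 for Pklr. Slc4a2 was at -0.02 (SE 0.11), beside -0.19 for Slc4a1, and Car13, next to Car1 on chromosome 3, was at -0.08 (SE 0.10).

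Markers of other blood cells also varied over these arrays, and their part in these results was not tested. Their counts without overlap stand beside 13.0% of all features lower (3.60% above the median level and 22.4% not above it) and 8.54% higher. A lower mean was found in 57.8% of all features, in 30.7% of those above the median level and in 84.9% of the others. Above that level 69.3% had a higher mean. Not above it are 3 mast cell and basophil, 3 megakaryocyte, 3 macrophage and 2 long-term stem cell markers. So are 3 lymphoid, 3 lineage gate and 0 neutrophil and monocyte markers. All 6 mast cell and basophil markers had a lower mean (median -0.52, 3 lower without overlap), with a mean level of 8.77 to 8.98 in WT and 7.78 to 8.66 in Lxn-/-. All 5 megakaryocyte markers did too (median -0.31, 2 lower without overlap), at 7.97 to 8.30 in WT and 7.63 to 7.84 in Lxn-/-. All 5 macrophage markers were lower in mean (median -0.27, 0 without overlap), at 7.53 to 7.88 in WT and 7.27 to 7.50 in Lxn-/-. All 5 long-term stem cell markers were lower as well (median -0.22, 0 without overlap), at 8.45 to 8.71 and 8.03 to 8.51. Lxn-/- array 1 was the lowest array in each of these 4 lists, and WT array 2 the highest in 3 of them. Of 5 neutrophil and monocyte markers 2 were lower and 3 higher in mean (median 0.03), with 0 lower and 1 higher without overlap (Ctsg, the cathepsin G gene), at 11.96 to 12.33 in WT and 12.04 to 12.46 in Lxn-/-. Of 5 lymphoid markers 4 were higher in mean (median 0.16), with 0 lower and 1 higher without overlap (Rag1, a gene of antigen receptor recombination), at 8.64 to 8.82 and 8.78 to 8.89. Of 6 markers used in lineage gates, 3 were lower and 3 higher in mean (median 0.01, 0 without overlap in either direction), at 7.81 to 8.10 and 7.90 to 7.98.

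**Figure D5:**
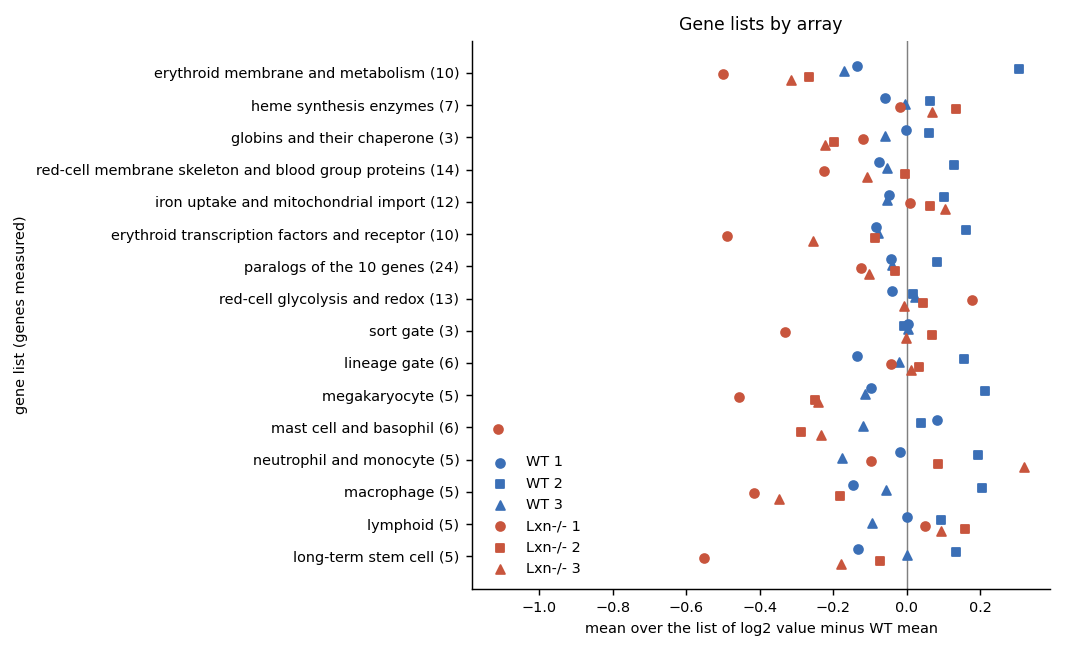
Mean over each gene list (rows, with the number of genes measured) of the log2 value minus its WT mean, for each array (blue WT, red Lxn-/-, symbols for replicates 1 to 3). The 10 genes lie at 0.31 in WT array 2 and at -0.50 in Lxn-/- array 1, and the mast cell and basophil list at -1.11 in that array.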

How the data were processed

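Total RNA of sorted progenitors was hybridised to 6 Affymetrix arrays, 3 per genotype. Log2 expression values of 35557 features were deposited by the authors in 1 table. Normalization was by RMA, per the series text and labels, with Partek 6.0 named in the submitters' processing notes. A log2 scale fits their values, which run from 2.93 to 14.78 in tested features. The sources used here give no probe layout, RMA settings or scan dates. RMA adjusts the arrays to one another, so total RNA per cell is not measured. The tested values still differed in distribution between arrays. Repeating quantile normalization over them took the features at an unadjusted p under 0.05 in limma from 3346 to 1812.

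Gene names come from the platform's annotation, updated by Entrez identifier to GRCm38.p6 symbols. Of 23410 tested features 21789 carry 1 symbol and 1621 several, and the latter were left unnamed. Where a gene has several features the highest mean stands for it, though each of the 10 genes has 1. The comparison of groups used limma 3.58.1 (R 4.3.3, lmFit, eBayes without trend, two-sided, Benjamini-Hochberg over all tested features, threshold 0.05), and the fit was tested on simulated data. Each array is a separate pool of mice, so p-values measure the spread between pools. Two-sided exact permutation tests over the 6 arrays were also run for the 10 genes. With 3 against 3 arrays they cannot go below 0.1, which the 5 genes without overlap reached, and the other 5 gave 0.2 to 0.5. Features of like level are those in the same of 20 equal bins of mean level. Sequences are RefSeq's (GRCm38.p6). Figures were drawn with matplotlib 3.10.9.

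The 10 genes and the gene lists were chosen with earlier results of these data known. Always named were the 10 genes, Lxn, sort and sex-linked markers and a fixed set of erythroid genes. From each list, up to 5 members with an unadjusted p under 0.05 were named, and then the 5 genes of closest pattern. Hbb-y, named beside Hbb-bh1, was chosen after its values were seen. Results were recomputed with a replicate block, with each array left out, after quantile normalization or median centring, in brighter features only, in all rows of the table, with array weights, with a robust variance trend and with the mean of a gene's features. Leaving out both arrays with Y-linked signal, or WT array 2 with Lxn-/- array 1, was added after seeing the data.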

Additional observations from a re-analysis of the deposited data

How the results depend on the processing

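None of the 10 genes passed an adjusted p of 0.05 in limma under any alternative run, the smallest adjusted p being 0.122 (Pklr, array weights), and none changed the sign of its difference. The number of genes lower in mean was 9 of 10 throughout, or 6 of 7 among features above the median level. Leaving out each array in turn gave 2 to 8 genes with an unadjusted p under 0.05 (6 with all arrays), 5 to 7 lower without overlap (5 with all arrays), where 15.2% to 28.7% of all features were, and a median change of -0.52 to -0.28. Over all features it gave 0 to 145 with an adjusted p under 0.05, the 145 without Lxn-/- array 2, and 1628 to 5541 with an unadjusted p under 0.05. Of the 23410 features, quantile normalization again gave 1812 such features with 3 of the 10 genes, and array weights 5614 with 3. Of the 11705 features above the median level 1356 were such, as were 4 of the 7 genes tested there. In that run 3 genes were lower without overlap, as were 3.60% of its features, and 3 of the 10 genes were not tested. Without both arrays with Y-linked signal, which leaves a lone Lxn-/- array, the median change of the 10 genes was -0.32. Without WT array 2 and Lxn-/- array 1, 2 of the 10 genes had an unadjusted p under 0.05, as had 4740 of the 23410 features. The replicate block gave 1 feature passing after adjustment and 8 of the 10 genes with an unadjusted p under 0.05, as had 3319 of the 23410 features. Deviations of same-numbered arrays correlated at 0.08, -0.01 and -0.01 over all features. The labels do not say whether same-numbered arrays are pairs, and these correlations cannot decide it, since they are taken over all features together. In some runs fewer samples or genes were tested, and the cause of these shifts was not tested. Only 3 arrays a group limit the precision of all 10 genes, and Alas2, Rhd and Add2 also lie in the dim range.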

Other observations

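Other measured genes next to the carbonic anhydrase pair on chromosome 3 had smaller differences than Car1, whose Lxn-/- array 1 was at 9.42. Car3, which lies between Car1 and Car2, was 7.01, 6.98 and 7.21 in WT and 6.58, 7.18 and 6.92 in Lxn-/- (-0.17, SE 0.15). Beyond Car13, the cell cycle factor gene E2f5 was 7.85, 7.69 and 7.58 in WT and 7.68, 7.92 and 8.28 in Lxn-/- (0.26, SE 0.15). These genes were chosen by position after the values of Car1 were seen, and the difference from Car1 was not tested.

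Of 13 other glycolysis and redox genes of the red cell that were measured, 10 were higher and 3 lower in mean. All 13 are above the median level, where 69.3% of features had a higher and 30.7% a lower mean. The median change of the list was 0.10, with 0 at an unadjusted p under 0.05 in limma and 0 passing after adjustment. Relative to the WT mean the list lay at 0.18, 0.04 and -0.01 in Lxn-/- arrays 1, 2 and 3. Bpgm, which makes the 2,3-bisphosphoglycerate that lowers the oxygen affinity of hemoglobin, was 7.77 ± 0.02 in WT and 7.99 ± 0.22 in Lxn-/- (0.22, SE 0.12). Blvrb, a biliverdin reductase gene abundant in red cells, was 9.47 ± 0.34 and 9.12 ± 0.15 (-0.35, SE 0.17), and was highest in WT array 2 as 8 of the 10 genes above were. Bpgm and Blvrb were chosen after their values were seen.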
